A study of Mus musculus with 272 samples.

Results

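The regions described here were distal H3K27me3 regions of mouse muscle stem cells (MuSCs), that is, stretches of chromatin carrying trimethylated lysine 27 of histone H3 that lay away from every annotated gene start. A region was built by joining the overlapping peaks of the 2 H3K27me3 libraries and was kept when it held a peak of each library and its nearest edge was more than 3 kb from every transcription start site of GENCODE M21 on mm10. The members were thus chosen by the measured H3K27me3 peaks themselves, and their H3K27me3 values are given as a description with no test. This left 808 distal regions of 3033 regions shared by both libraries, and the other 2225, within 3 kb of a start site, are called promoter regions below. The members held 1039 of the 6064 peaks of replicate 1 and 938 of the 10458 peaks of replicate 2 on the 21 assembled chromosomes.

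The cells were GFP+ MuSCs sorted from hindlimb muscle of Pax7Cas9 mice, in which Cre expressed from *Pax7* switches on a Cre-dependent Cas9 knockin, so all libraries came from Cas9-expressing cells and no group without Cas9 was compared. The chromatin data were collected to set Cas9 editing outcomes against local chromatin, and comprised 8 libraries, 2 each of ATAC-seq (open chromatin) and of ChIP-seq for H3K27me3, H3K4me3 and H3K27ac. The labels of these libraries give the tissue as skeletal muscle and state no age, sex or guide RNA. No label says whether the 2 replicates of a feature were separate animals, so the spread between them may be technical. The series also holds an input labelled for H3K27me3 and H3K4me3 and an input labelled for H3K27ac. The replicates of a ChIP-seq feature thus had no separate inputs, and neither had H3K27me3 and H3K4me3. The peak lists carry no read numbers, and depth is unknown.

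H3K27me3 is deposited by Polycomb repressive complex 2 (PRC2), whose catalytic subunit is EZH1 or EZH2, and is bound by CBX proteins of the complex PRC1. It typically covers CpG-rich DNA and the regulatory genes of other lineages, at which it accompanies a silent state. H3K4me3 marks promoters, its presence together with H3K27me3 is known as bivalency, and H3K27ac marks active promoters and enhancers and cannot sit on the same lysine as H3K27me3.

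The sequences below show stretches at developmental regulators and a narrow stretch with strong enrichment. They come from the GRCm38.p6 (mm10) reference, plus strand, 5′ to 3′, with CG dinucleotides in capitals. The first is a whole region of under 200 bp, and the other 6 are 160 bases around the summit of replicate 1.
Narrow intergenic region nearest *Aasdhppt* (chr9:4260381-4260519): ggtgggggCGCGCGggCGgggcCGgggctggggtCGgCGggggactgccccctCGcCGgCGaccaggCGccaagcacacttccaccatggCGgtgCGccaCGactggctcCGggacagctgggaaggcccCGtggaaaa
Region over a coding exon of *Gata4* (chr14:63240938-63241097): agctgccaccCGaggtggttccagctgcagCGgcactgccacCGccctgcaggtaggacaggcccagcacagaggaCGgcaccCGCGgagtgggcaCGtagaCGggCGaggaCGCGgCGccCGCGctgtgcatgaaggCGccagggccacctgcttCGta
Region over a coding exon of *Hoxc13* (chr15:102927097-102927256): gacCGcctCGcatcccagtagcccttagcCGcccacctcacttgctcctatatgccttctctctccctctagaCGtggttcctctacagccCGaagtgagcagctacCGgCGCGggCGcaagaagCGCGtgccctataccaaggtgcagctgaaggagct
Intergenic region nearest *Foxa1* (chr12:57539258-57539417): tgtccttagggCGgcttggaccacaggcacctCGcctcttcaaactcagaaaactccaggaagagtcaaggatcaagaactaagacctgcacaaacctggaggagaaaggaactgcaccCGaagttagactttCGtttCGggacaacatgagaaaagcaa
Intergenic region nearest *Neurog2* (chr3:127627523-127627682): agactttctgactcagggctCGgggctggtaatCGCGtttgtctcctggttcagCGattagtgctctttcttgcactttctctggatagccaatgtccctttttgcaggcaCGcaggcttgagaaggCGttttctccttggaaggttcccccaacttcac
Intergenic region nearest *Hoxa13* (chr6:52253571-52253730): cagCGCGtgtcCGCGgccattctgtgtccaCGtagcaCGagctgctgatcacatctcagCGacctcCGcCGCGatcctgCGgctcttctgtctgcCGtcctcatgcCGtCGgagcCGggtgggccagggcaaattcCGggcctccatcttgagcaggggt
Downstream of *Uncx*, in a region that touches its exon (chr5:139548595-139548754): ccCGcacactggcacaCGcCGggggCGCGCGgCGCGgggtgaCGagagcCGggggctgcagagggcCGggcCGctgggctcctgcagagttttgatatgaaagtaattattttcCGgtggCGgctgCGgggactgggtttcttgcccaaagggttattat
The *Gata4*, *Hoxa13* and intergenic *Aasdhppt* stretches held 16 CG each, the *Uncx* stretch held 15 and the *Hoxc13* stretch 11. The *Neurog2* stretch held 6 and the *Foxa1* stretch 5. The *Aasdhppt* region was richer in CpG than most narrow members. Its ratio of observed to expected CpG in 500 bp around the midpoint was 0.819, against a median of 0.259 in regions under 200 bp.

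The promoters of marker genes were checked first. Of 13 MuSC marker genes, which include *Pax7*, *Myf5* and *Myod1*, 13 had ATAC-seq and H3K4me3 at the promoter in both replicates, 12 had H3K27ac and 0 had H3K27me3. Over all protein-coding genes these shares were 67.8%, 60.8%, 46.6% and 4.81%. H3K27ac was present at 1 of 10 endothelial, 3 of 10 fibro-adipogenic, 3 of 10 myofibre and 1 of 10 neuron marker genes. H3K4me3 was present at 5, 5, 5 and 4 of these, ATAC-seq at 8, 6, 9 and 8, and H3K27me3 at 0, 1, 2 and 3.

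The members were small as called. The H3K27me3 lists hold narrow peaks, with median widths of 176 bp in replicate 1 and 180 bp in replicate 2. The width of the members ran from 105 to 4261 bp with a median of 462 bp, and together they covered 513270 bp, against 1742518 bp in the promoter regions. Fold enrichment, the authors' ratio of ChIP signal to background at the summit, had a median of 4.13 in replicate 1 and 4.45 in replicate 2, with ranges of 1.41 to 16.1 and 1.39 to 11.3. For a region of several peaks, the fold was that of its highest peak in each replicate and the q-value was its lowest. Across the 808 regions the folds of the replicates gave a Spearman rho of 0.383, which is given as a description because the regions share libraries and the rule required a peak in both. Most members, 599 (74.1%), held a single peak of each replicate. The H3K27me3 lists were called on p, and 451 members (55.8%) also had a q-value of at most 0.05 in both replicates. At the limit of the rule, the nearest members lay 3001 bp from a start of *Foxc1*, with folds of 4.88 and 5.48, and 3004 bp from *Barhl2*, with folds of 4.5 and 6.85. Just outside it lay regions 2998 bp from *Sost*, with folds of 3 and 4.45, and 2998 bp from *Bsx*, with folds of 4.5 and 5.48.

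**Figure D1:**
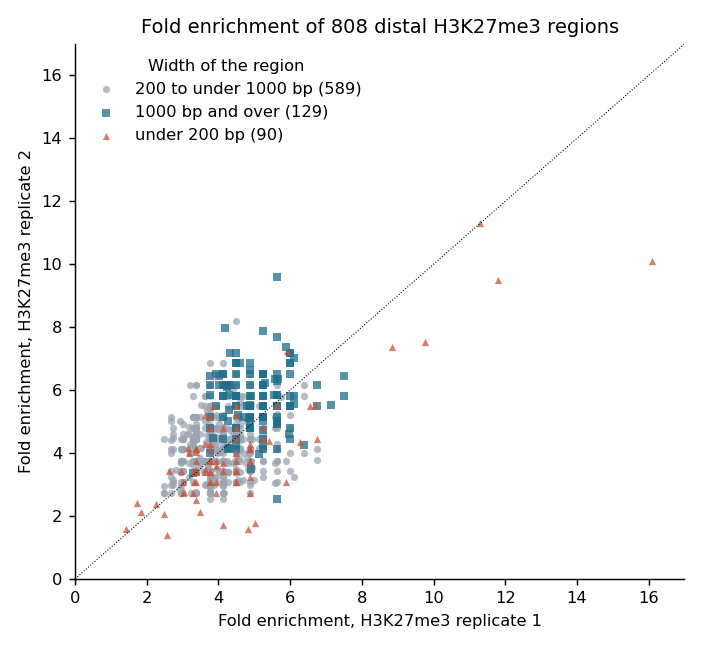
Fold enrichment of the highest peak in each of the 808 distal regions in H3K27me3 replicate 1 (horizontal) and replicate 2 (vertical), by width of the region, with the dotted line marking equal folds. The 5 points farthest to the upper right are all regions under 200 bp wide, while the 129 regions of 1000 bp and over have medians of 4.88 and 5.82.

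Width divided the members. A region of several peaks had more chances of a high fold, and the part of peak number in the folds below was not tested. The 129 regions of 1000 bp and over had median folds of 4.88 and 5.82, and 104 of them (80.6%) lay within 10 kb of a promoter region. The 589 regions of 200 to under 1000 bp had medians of 4.13 and 4.24, and 73.2% lay that near. The 90 regions under 200 bp had medians of 3.8 and 3.76 with 43.3% that near, although they also included the 5 highest folds among the 451 members with low q-values in both replicates. Of these 5, 4 were the *Aasdhppt* region printed above, with folds of 11.3 and 11.3, a region in *AW554918* nearest to *Celf4* with 11.8 and 9.51, a region in an intron of a noncoding gene nearest to *Zfp619* with 9.75 and 7.53, and a region in *Atp7b*, which encodes a copper-transporting ATPase, with 8.85 and 7.36. *Celf4* encodes an RNA-binding protein.

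These narrow regions also stood apart in the fold of their ATAC-seq peaks, although regions of 1000 bp and over met such peaks about as often. An overlap of 1 bp was enough, so wider regions had more bases in which to meet a peak, and the shares are not per base. Of the 90, 31 (34.4%) overlapped an ATAC-seq peak of replicate 1 and 18 (20%) one of replicate 2, and the ATAC-seq folds there had medians of 60.9 and 44.2. In the 718 wider regions, 112 and 82 overlapped, with median ATAC-seq folds of 6.13 and 5.65. By width, this was 34.1% and 24% of the regions of 1000 bp and over, and 11.5% and 8.66% of those of 200 to under 1000 bp. An ATAC-seq fold above 20 in either replicate occurred in 28 narrow and 3 wider regions. At the *AW554918*, *Zfp619* and *Atp7b* regions the ATAC-seq fold was 82.9, 63.3 and 38.1 in replicate 1, with no peak in replicate 2. The *Aasdhppt* region differed in having a peak in both, with folds of 22.5 and 17.9. Of the narrow regions, 15 had an ATAC-seq peak in replicate 1 and not in replicate 2, 2 the reverse and 16 in both. Whether reads from repeated sequence take part in these values was not tested, and 8 of the 90 were repeat-masked over at least 50% of the 500 bp around their midpoint, against 11 of the 589 and 1 of the 129 regions of the wider classes. In that window the *AW554918* region was 100% masked, the *Atp7b* region 37%, the *Zfp619* region 16% and the *Aasdhppt* region 0%.

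The share of members in genes was close to that of distal DNA. In all, 365 members (45.2%) overlapped an annotated gene, against 41.9% of the 4418725 distal 500-bp windows of the genome, and 443 (54.8%) were intergenic. With start sites of protein-coding genes only, 54.1% overlapped a gene, and of members more than 10 kb from a start 31.5% did. No window share was taken under either of these rules. The share in a gene was 45.3% for distal peaks of replicate 1 alone, 45% for those of replicate 2 alone and 84.8% for promoter regions. By place, 73 members (9.03%) touched a coding exon, 58 (7.18%) another exon and 234 (29%) an intron alone. Some exon was touched by 131 members (16.2%), against 4.93% of the windows. A protein-coding gene held 274 members (33.9%), against 35.9% of the windows, and 238 of these lay in the gene whose start was nearest. Gene-body and intergenic members had the same median folds, 4.13 and 4.45, and median widths of 434 and 475 bp.

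Although farther than 3 kb by rule, the members gathered near starts. Of the 808, 319 (39.5%) lay over 3 and up to 5 kb from the nearest start, against 8.97% of the distal windows, and 292 (36.1%) lay over 5 and up to 10 kb, against 16.9%. At over 10 and up to 50 kb the shares were 21.7% and 47.9%, and only 3 members lay beyond 100 kb (0.371%, against 10.9%). A promoter H3K27me3 region lay within 10 kb of 574 members (71%), against 0.455% of the windows, and within 1 kb of 177 (21.9%). No promoter region lay within 100 kb of 137 members (17%), and 101 (12.5%) had no other shared region of either kind within 10 kb.

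**Figure D2:**
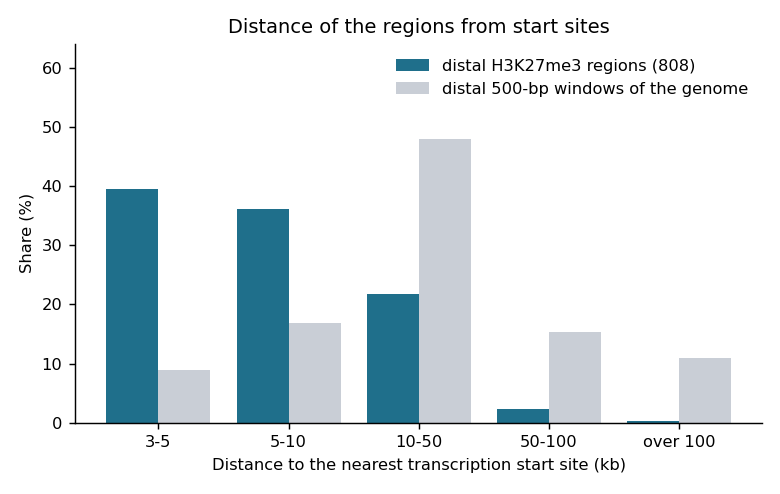
Share of the 808 distal regions and of distal 500-bp windows of the genome (vertical, %) by distance to the nearest start site (horizontal, kb). The regions exceed the windows up to 10 kb, with 39.5% against 8.97% in the nearest class, and fall below them beyond it.

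By chromosome, the members ranged from 6.26 per 10 Mb on chromosome 5, with 95 regions, and 6.23 on chromosome 13, with 75, down to 0.916 on chromosome 16 and 0.351 on the X chromosome, with 6 regions. No member lay on the Y chromosome.

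The members fell into runs. Another member lay within 1 kb of 526 members (65.1%). Whether such neighbours are parts of a longer marked stretch that peak calling divided was not tested, so counts of members are counts of called regions. Joined across gaps of up to 10 kb they formed 321 clusters, of which 162 were a single region and 112 had 3 or more, and those 112 held 552 members (68.3%). Seen by gene, 56 of 296 nearest protein-coding genes had 5 or more members and held 405 of them (50.1%), while 150 genes had 1. The run with most regions lay over *Hoxc13* and ended upstream of *Hoxc12*, both homeobox genes of posterior and distal patterning. It had 15 regions in 31.9 kb that covered 14406 bp. Its strongest member, chr15:102925580-102928155, spanned 2576 bp over a coding exon of *Hoxc13* with folds of 6.11 and 7.03 and ATAC-seq folds of 9.53 and 8.02. It was the 1 region of the 15 with ATAC-seq in both libraries, and 0 had H3K4me3 in both.

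*Gata4*, a transcription factor of heart and endoderm, held 12 members in 28.8 kb, and all 12 lay in the gene. The member over a coding exon, chr14:63240266-63241954, had H3K27me3 folds of 7.5 and 6.44, ATAC-seq folds of 4.51 and 3.62, and an H3K4me3 peak in replicate 2 alone with a fold of 3.21. A 1671-bp intronic member, chr14:63255123-63256793, carried both marks in both libraries, with ATAC-seq folds of 10.5 and 9.79 and H3K4me3 folds of 3.77 and 4.21. The longest member there, 4135 bp of intron with folds of 6 and 6.5, had no ATAC-seq, H3K4me3 or H3K27ac peak. *Gata4* had promoter H3K27me3, H3K4me3 and ATAC-seq in both replicates and no such H3K27ac.

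*Pax3*, the paralog of *Pax7* that acts in embryonic muscle progenitors, had 12 members, of which 11 formed a run of 15.7 kb upstream of the gene and 1 lay in an intron. H3K27me3 folds ran from 3 to 6.08 in replicate 1 and from 2.99 to 6.5 in replicate 2. Of the 12, 3 also had H3K4me3 in both libraries, and these were the intronic member with H3K4me3 folds of 9.51 and 7.42, a member 5.78 kb upstream with 15.1 and 9.71, and a member 18.8 kb upstream with 17.4 and 14.8. The intronic and the 18.8-kb member also had ATAC-seq in both libraries, with folds of 11.2 and 12.1 and of 6.18 and 6.03. The intronic member also met an H3K27ac peak of replicate 2 with a fold of 4.05, and no H3K27ac peak of replicate 1 overlapped it. The H3K27me3 q-value of these 2 was above 0.05 in at least 1 replicate.

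**Figure D3:**
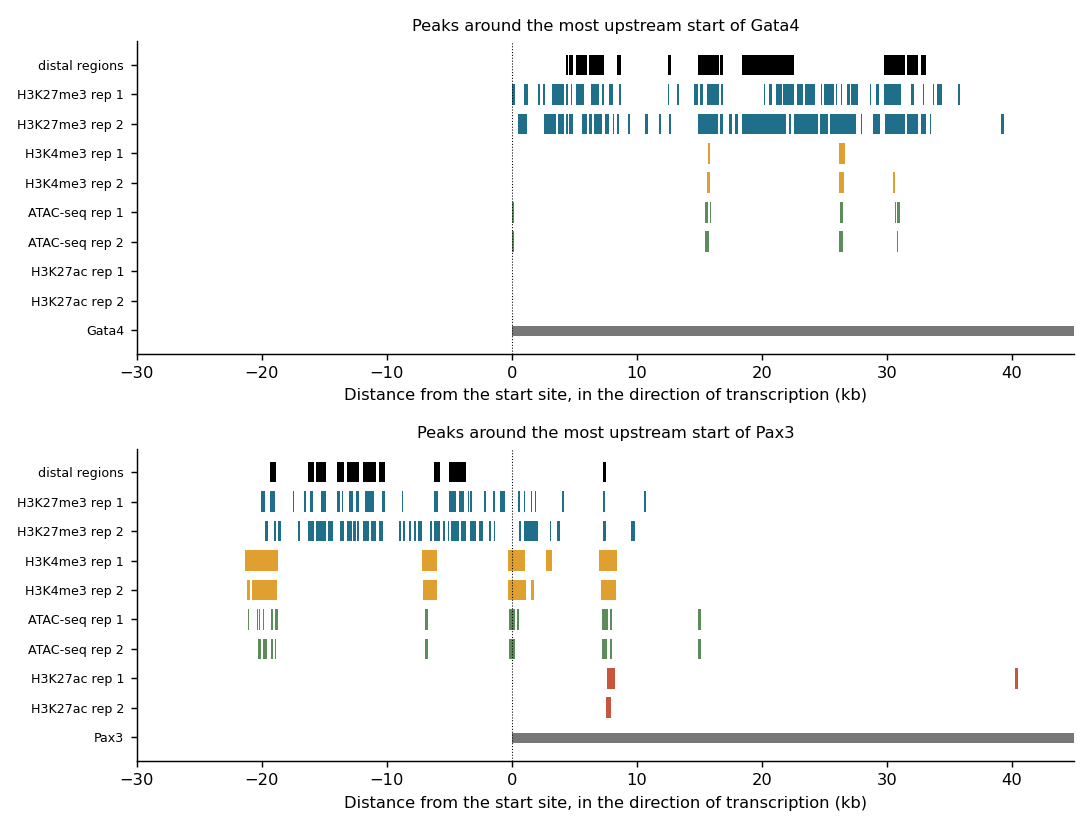
Distal regions and the peaks of each library around *Gata4* (top) and *Pax3* (bottom), by distance from the gene's most upstream annotated start in the direction of transcription (kb); the grey bar is the gene. The *Gata4* regions lie in the gene and 11 of the 12 *Pax3* regions lie upstream, and H3K4me3 and ATAC-seq peaks meet only some of the regions.

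Around *Cbx8*, which encodes a CBX subunit of PRC1, 12 members spread over 25 kb and 11 of them were intergenic. Folds ran from 3.21 to 6.38 in replicate 1 and from 3.36 to 7.19 in replicate 2. A single H3K4me3 peak, with folds of 19.9 and 15.6, met 2 neighbouring members 12.6 and 16.4 kb from the start of *Cbx8*, the farther of which also had ATAC-seq folds of 4.33 and 3.39. *Gsx2*, a homeobox gene of the ventral forebrain, had 12 members in 19 kb, with lower folds of 2.68 to 4.13 and 3.38 to 4.91, and 1 of them had low q-values in both replicates. *Barhl2*, a homeobox gene of retina and spinal cord, had 12 members in 20.2 kb, 7 of them with low q-values in both. *Six3*, a homeobox gene of the anterior forebrain and eye, was nearest to 13 members in separate groups, of which 7 lay 124 to 155 kb away, and 0 of the 13 had ATAC-seq or H3K4me3 in both libraries. *Ostm1*, which encodes a lysosomal membrane protein, was likewise nearest to 13 members, all inside it, at 3.17 to 46.2 kb from its start, and the run of 9 regions and 21.6 kb there also took in *Nr2e1*, an orphan nuclear receptor of neural stem cells. The nearest start is a label of position and was not tested as a target.

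The members were frequent at lineage transcription factors of other tissues. Of all 21938 protein-coding genes, 313 (1.43%) contained a member or were the nearest to one. Of 89 lineage transcription factors of other tissues, 55 (61.8%) did, with 217 members nearest to them, and 81 had promoter H3K27me3 in both replicates. Of 39 Hox genes, 14 (35.9%) did, with 40 members, and 28 had promoter H3K27me3. Of 19 Wnt ligands, 2 did, *Wnt1* with folds of 4.5 and 5.48 and *Wnt10a* with 4.5 and 4.11, although 13 had promoter H3K27me3. Of 40 synaptic adhesion and ion channel genes 0 did, and likewise 0 of the 13 MuSC, 10 endothelial, 10 myofibre and 10 neuron markers. Lists this short would often hold 0 at the 1.43% of all genes, so these counts show no absence particular to the lists. The 1 of 10 fibro-adipogenic markers was *Pdgfra*, a receptor tyrosine kinase, with a 243-bp intergenic member of folds 4.5 and 4.45. These lists were chosen with earlier results known, so the counts are descriptions.

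Among the lineage factors, the strongest members lay at *Gata4*, given above, and at *Foxa1*, a pioneer factor of endoderm, whose 2459-bp intergenic region chr12:57538054-57540512 had folds of 6 and 7.19. That region also had ATAC-seq folds of 4.25 and 5.66 and H3K4me3 folds of 5.03 and 3.17. The region at *Neurog2*, a proneural factor, spanned 2597 bp with folds of 6 and 6.85 and had none of the other 3 features. The region at *Pax2*, a factor of kidney and inner ear, had folds of 6.38 and 5.82 and an ATAC-seq peak in replicate 1 alone, and the intronic region at *Irx5* had folds of 5.57 and 6.36 and no other feature. Among further intergenic members, the region at *Otp*, a homeobox gene of the hypothalamus, had folds of 6.75 and 6.16. The 2952-bp region at *Igf2bp3*, which encodes an RNA-binding protein of fetal tissue, had 5.89 and 7.36. The region touching an exon of *Uncx*, a homeobox gene of somite patterning, had 6 and 7.19.

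Among Hox genes, the region at *Hoxa13*, chr6:52252772-52254433, was 1 of 2 members with H3K27ac in both libraries. This region lay 3.03 kb from the start of *9530018H14Rik*, just beyond the 3-kb limit, and 6.37 kb from that of *Hoxa13*. Its folds were 5.63 and 5.83 for H3K27me3, 6.13 and 3.87 for H3K27ac, 6.1 and 4.21 for H3K4me3, and 6.43 and 3.95 for ATAC-seq. The region at *Hoxb13* had H3K27me3 folds of 4.5 and 8.21, that of *Hoxd10* and *Hoxd11* 5.25 and 6.5, and that of *Hoxc12* 5.25 and 5.13, and none of these had a peak of another feature.

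By families named by symbol, which were chosen after the values were seen, 94 of 262 genes (35.9%) contained or were nearest to a member, against 219 of the other 21676 (1.01%), and 374 members (46.3%) were nearest to them. The Lhx and Isl family had 8 of 12 genes with a member, the Otx, Otp and Emx genes 4 of 5, the Fox genes 15 of 44 and the Sox genes 3 of 19.

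Many nearest genes carried H3K27me3 at their own promoters. Of the 296 nearest protein-coding genes, 196 (66.2%) had promoter H3K27me3 in both replicates, against 4.81% of all protein-coding genes. H3K4me3 was present at 77%, against 60.8%, ATAC-seq at 83.1%, against 67.8%, and H3K27ac at 24%, against 46.6%. Both H3K27me3 and H3K4me3 were present at 158 (53.4%), against 3.85%. The promoter peaks came from the same 2 H3K27me3 libraries as the members, and no test was made. Promoter H3K27me3 was present at 49 of the 56 genes with 5 or more members (87.5%) and at 75 of the 150 genes with 1. Without the members under 200 bp wide, 74.2% of the nearest genes had it, and of members more than 10 kb from a start 46.7% of the nearest genes had it. With replicate 1 or replicate 2 of H3K27me3 left out, so that distal and promoter peaks came from 1 library, the share was 40.3% and 42.6%.

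The other 7 of the 56 genes, singled out after their values were seen, were *BC107364*, *Nr2f2*, *1700067P10Rik*, *Igf1r*, *Irf8*, *Kiz* and *Tmem33*, and 5 of them had promoter H3K27ac. *Nr2f2*, an orphan nuclear receptor of mesenchyme and vessels, had H3K4me3, ATAC-seq and H3K27ac at its promoter and 9 members 3.5 to 74.7 kb away, with folds of 3.75 to 5.63 in replicate 1 and 2.54 to 5.13 in replicate 2. *Igf1r*, the receptor of insulin-like growth factor 1, had the same 3 features and 5 members 3.31 to 25.7 kb away, with folds of 2.94 to 5.25 in replicate 1 and 2.74 to 6.03 in replicate 2. The 5 members nearest to *Irf8*, a factor of myeloid cells, lay 131 to 134 kb from its start.

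Open chromatin met a minority of the members. ATAC-seq peaks of replicate 1 overlapped 17.7% and those of replicate 2 overlapped 12.4% (mean 15% ± 3.76, SD, n = 2), against 2.26% and 1.58% of distal windows. In promoter regions the shares were 32.3% and 25.5% (28.9% ± 4.77, SD, n = 2), so both libraries were lower in distal regions. The 2 values of each set come from the same 2 libraries. An unpaired two-sided exact permutation test gave p = 0.333 and an exact test paired by library p = 0.5, each the smallest its design allows, so no call could be made here or for the other features. Within a library the difference, distal minus promoter, was -14.6 percentage points in replicate 1 and -13.2 in replicate 2. Both ATAC-seq libraries had a peak in 84 members (10.4%), against 22.8% of promoter regions and 1.32% of windows. They had one in 3.65% of distal H3K27me3 peaks found in replicate 1 alone and in 2.55% of those in replicate 2 alone.

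H3K4me3 overlapped 14.2% of the members in replicate 1 and 9.65% in replicate 2 (11.9% ± 3.24, SD, n = 2), against 0.224% and 0.117% of distal windows. The promoter regions had 39.9% and 31.4% (35.7% ± 6.01, SD, n = 2), again higher in both libraries, with an exact permutation p of 0.333. H3K4me3 in both libraries was found in 76 members (9.41%), against 30.7% of promoter regions, 0.113% of windows, and 2.27% and 2.55% of distal peaks of replicate 1 and of replicate 2 alone. H3K27ac overlapped 0.619% and 0.495% of the members (0.557% ± 0.0875, SD, n = 2), which is 5 and 4 regions, against 0.425% and 0.24% of distal windows. The promoter regions had 1.08% and 0.764% (0.921% ± 0.222, SD, n = 2), with an exact permutation p of 0.333. H3K27ac in both libraries was found in 2 members (0.248%), against 0.629% of promoter regions, 0.199% of windows, and 0.378% and 0.106% of distal peaks of replicate 1 and of replicate 2 alone. Leaving out the members under 200 bp wide brought the H3K27ac share to 0.279%.

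**Figure D4:**
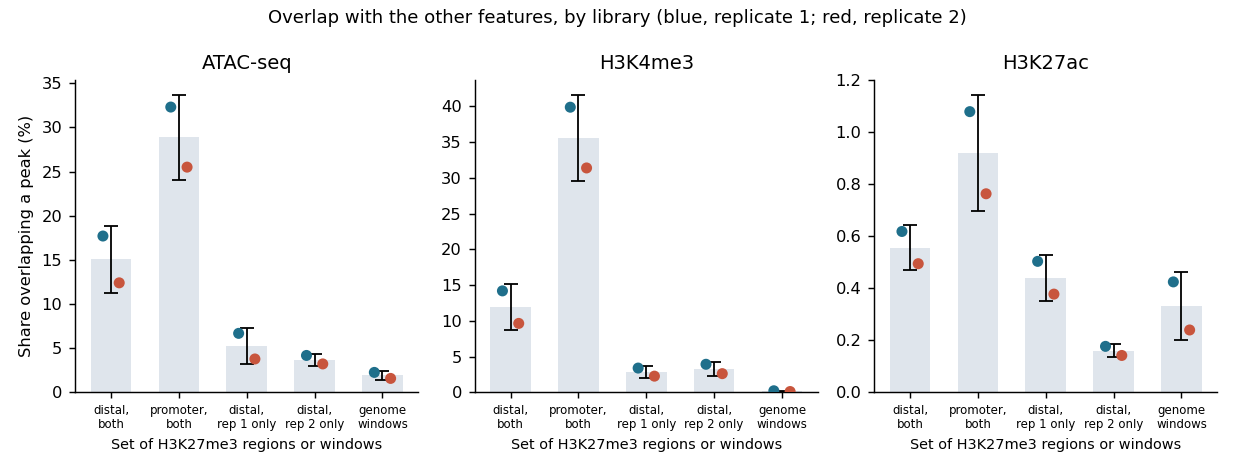
Share of regions or windows overlapping a peak of ATAC-seq, H3K4me3 or H3K27ac (vertical, %), for distal and promoter regions of both H3K27me3 replicates, distal peaks of 1 replicate only, and distal 500-bp windows of the genome. Points are the 2 libraries, bars their mean and error bars their SD, and the distal regions lie below the promoter regions in every library of all 3 features.

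Because promoter regions were the wider, the shares were also taken in 500 bp around each midpoint. ATAC-seq then met 12.9% ± 3.75 of distal and 23.7% ± 4.53 of promoter regions (SD, n = 2), and H3K4me3 met 10.7% ± 2.76 and 33% ± 6.01 (SD, n = 2). H3K27ac met 0.619% ± 0.175 and 1.08% ± 0.255 (SD, n = 2).

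Counting peaks found in both libraries, 684 members (84.7%) carried none of the other 3 features. ATAC-seq alone was found in 47, H3K4me3 alone in 40 and both without H3K27ac in 35. The other 2 were the *Hoxa13* region, with all 3 features, and a 142-bp region nearest to *Gm11084*, with ATAC-seq folds of 47.6 and 41.3 and H3K27ac folds of 3.83 and 4.48. ATAC-seq and H3K4me3 occurred together, with H3K4me3 in 36 of the 84 members that had ATAC-seq in both libraries (42.9%) and in 24 of the 649 that had it in neither (3.7%). Members with H3K4me3 in both libraries lay in gene bodies in 53.9% of cases and those with it in neither in 43.6%. A 591-bp intergenic region nearest to *Robo3*, which encodes an axon guidance receptor, was among the strongest of those with both features, with ATAC-seq folds of 6.59 and 8.28 and H3K4me3 folds of 9.66 and 7.21.

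Members whose nearest gene lacked promoter H3K27me3 met ATAC-seq more often. There were 166 such members (20.5%), with 34.3% overlapping ATAC-seq in replicate 1 and 20.5% in replicate 2, and of the other 642 members 13.4% and 10.3% did. The H3K4me3 shares were 21.1% and 14.5% against 12.5% and 8.41%. The median widths of these sets were 342 and 498 bp, and the part of width in this difference was not tested.

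The members were richer in CpG than other distal DNA. In 500 bp around the midpoint, the ratio of observed to expected CpG had a median of 0.392, against 0.149 in distal windows, and the GC content a median of 49.6%, against 41%. Repeat-masked bases made up a median of 10.6%, against 26.4%. A GC content of at least 50% with a CpG ratio of at least 0.6, a common description of CpG islands, was met by 151 members (18.7%), against 0.232% of windows and 42.3% of promoter regions. Of distal peaks of a single replicate, 4.53% (replicate 1) and 6.62% (replicate 2) met it. Among members with ATAC-seq in both libraries 54.8% met it and with ATAC-seq in neither 12%, and the shares for H3K4me3 were 68.4% and 11.1%.

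**Figure D5:**
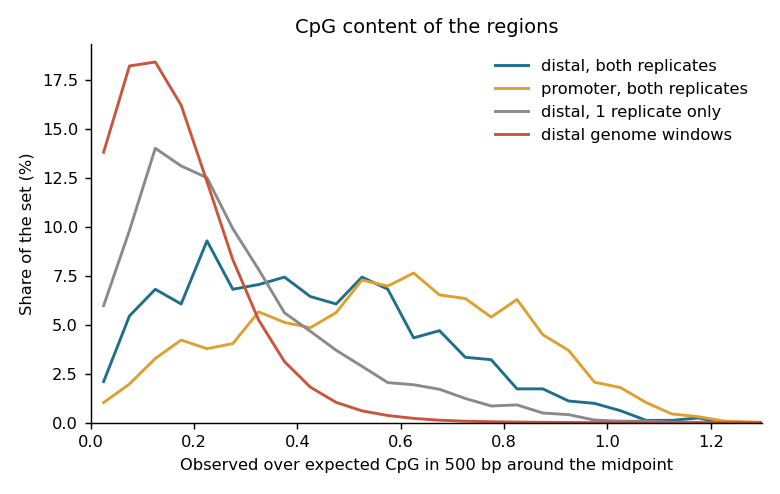
Distribution of the ratio of observed to expected CpG in 500 bp around the midpoint (horizontal) as a share of each set (vertical, %), for distal regions, promoter regions, distal peaks of 1 replicate only and distal windows of the genome. The distal regions, with a median of 0.392, lie to the right of the windows, with a median of 0.149.

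Short sequence motifs were counted on both strands in the same 500 bp. CAGCTG, an E-box bound by basic helix-loop-helix factors, was present in 171 members (21.2%), against 16.2% of distal windows. The share was similar in promoter regions (23.2%) and in distal peaks of replicate 1 alone (19.8%) or replicate 2 alone (21.1%), so it was not particular to the members. GAGAGAGA was present in 8.17%, against 8.19%, and CACACACA in 11.9%, against 13.5%. The members were more GC-rich than the windows, and a match is a description of the letters alone.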

How the data were processed

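Members, gene lists and tests were chosen with earlier results of these data known. The authors trimmed reads with Trim Galore 0.6.10, aligned them to mm10 with BWA 0.7.17-r1188, removed low-quality and duplicate reads (SAMtools 1.5, Sambamba) and blacklisted regions (BEDTools), corrected Tn5 offsets (deepTools 3.5.5) and called peaks per library with MACS2 2.2.6. In the deposited lists, fold enrichment is the authors' ratio at the summit, and p-values and q-values are the authors' on the −log10 scale. The authors' score was not used. The H3K27me3 lists hold peaks with q above 0.05, unlike the others.

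Peaks on assembled chromosomes were compared with GENCODE M21 by overlap of 1 bp (pandas 2.3.3, numpy 2.4.6). A promoter was 3 kb either side of any start. Regions were named by rank on the lower of the 2 folds among those with q of at most 0.05 in both replicates, with the strongest in gene bodies, between genes, with each other feature and in each gene list. The genes and clusters with most regions were added. One region of this ranking is not reported here. The nearest gene was the protein-coding gene with the nearest start. Distal 500-bp windows of a fixed grid were the background. Shares are mean ± SD over 2 libraries with an exact permutation test of distal against promoter regions, unpaired and paired by library. Overlap code was tested on simulated intervals. The other 264 samples, the inputs among them, were not analysed here.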

Additional observations from a re-analysis of the deposited data

How the results depend on the processing

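Pairing distal and promoter shares by library (the replicate block), chosen after seeing the data, left the mean distal shares at 15% for ATAC-seq, 11.9% for H3K4me3 and 0.557% for H3K27ac, and its exact p of 0.5, the smallest 2 pairs allow, made no call. Replicate numbers join different features in no test. The number of distal regions was 453 with H3K27me3 peaks of q at most 0.05, 320 with an overlap of at least 50% of both peaks, 197 more than 10 kb from a start, and 1936 to 3818 with either H3K27me3 replicate alone. The share in gene bodies under the same alternatives was 45.7%, 40.9%, 31.5% and 44.8% to 45.5%. It was 54.1% with starts of protein-coding genes only, 47% with each peak filtered before merging, and 45.8% without regions under 200 bp wide, which was added once the values were known (chosen after seeing the data). Promoter H3K27me3 at the nearest gene was 66.8% with low q, 66.9% with 50% overlap, 62.3% with protein-coding starts, 46.7% beyond 10 kb, 67.7% with filtering before merging, 74.2% without narrow regions and 40.3% to 42.6% with 1 H3K27me3 replicate. The ATAC-seq share was 21.1% beyond 10 kb, 35.1% with a peak within 1 kb and 6.05% to 8.16% with 1 H3K27me3 replicate, and leaving out an ATAC-seq replicate gave 12.4% to 17.7%. The H3K4me3 share was 15.2% with low q, 22.6% within 1 kb and 5.23% to 7.21% with 1 H3K27me3 replicate, and leaving out an H3K4me3 replicate gave 9.65% to 14.2%. The H3K27ac share, of 4 and 5 regions, was 0.883% with low q, 1.09% with 50% overlap, 0.4% with protein-coding starts, 1.02% beyond 10 kb, 0.248% with H3K27ac peaks of −log10 q of at least 5, 0.681% within 1 kb, 0.279% without narrow regions, 0.223% to 0.387% with 1 H3K27me3 replicate and 0.495% to 0.619% with 1 H3K27ac replicate. The cause of these shifts was not tested, except that 1 H3K27me3 replicate admits peaks the other lacks. The other alternatives moved a share by less than the SD between libraries or the number of regions by less than 1.5 times. Depth is unknown, and a missing peak is not a measured absence of the mark.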
